A study of Callithrix jacchus with 20 samples.

Results

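The genes described here are 9 regulators of DNA methylation that were listed by name: the de novo methyltransferases DNMT3A and DNMT3B, their cofactor DNMT3L, the maintenance pair DNMT1 and UHRF1, the oxidases TET1, TET2 and TET3, and the glycosylase TDG. All 9 of 9 were found among the 21181 autosomal genes that the stem cell and embryoid body (EB) tables share. The tables hold RNA-seq levels in TPM (transcripts per 1000000, scaled for transcript length and library) of 20 marmoset libraries, 1 per culture. Control ESCs were 4 wild-type lines from fertilized embryos (IVF #15 and #17, NAT #13 and #37). The ntESC lines came from embryos made by somatic cell nuclear transfer (SCNT), 3 from wild-type donors (ntESC WT #30, #53 and #61) and 4 from donors with the CAG-EGFP transgene, whose promoter is active in nearly all cells (ntESC GFP #24, #50, #54 and #55). Their embryos had received Kdm4d mRNA at 1500 ng/µl, 1 µM of the G9a inhibitor RK-701 for 24 h and 25 nM of the histone deacetylase inhibitor trichostatin A for 8 h. EBs, aggregates that differentiate in suspension, were read from 3 control lines (#13, #17 and #37), 3 ntESC WT lines (#30, #53 and #61, as ntEB WT) and 2 ntESC GFP lines (#24 and #50, as ntEB GFP). The remaining library was 1 culture of wild-type donor fibroblasts, so it has no replicate.

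DNA methylation at CpG sites is written on unmarked DNA by DNMT3A and DNMT3B. DNMT3L has no catalytic activity of its own and stimulates both enzymes, and in mouse it is best known from germ cells and the early embryo. After replication UHRF1 recognizes the sites that carry the mark on the parental strand alone and brings DNMT1 to copy it. The TET enzymes oxidize the mark, TDG cuts out the oxidized bases, and base excision repair restores the unmarked site. Cultured pluripotent cells are known for high DNMT3B and TET1, and many somatic cells use TET2 and TET3 more.

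Since every line was read once per stage, the replicate is the line. Some lines may descend from the same donor animal, and for these the p-values cover the variation among lines alone. Pluripotency markers (9 measured of 10 listed) summed to between 7645 and 9339 TPM in control ESCs and between 58.2 and 86.9 TPM in control EBs, where NANOG was at or below 0.229 TPM. ntEB GFP #24 stood apart from the other EBs with a sum of 5344 TPM. Its level of the fibroblast marker DCN, 2193 TPM, lay within the 1428 to 2476 TPM of control EBs. LUM and POSTN also lay within the control EB range, but the other listed fibroblast markers were above it. The fibroblast marker sum of ntEB GFP #24 was 14677 TPM, above the 6915 to 12251 TPM of control EBs. Among stem cell lines, ntESC WT #30 and #53 had pluripotency sums of 4127 and 3763 TPM and fibroblast marker sums (10 genes) of 2060 and 1671 TPM. The other 9 lines had 6617 to 9339 and 413 to 921 TPM. Of the 10 fibroblast markers COL1A1, PDGFRB and THY1 went the other way, below all control ESCs in #30 and #53. Member calls and list medians of the stage comparisons are also given without these lines (of #24, without its EB). The part that such differences in cell makeup have in the results was not tested, and in these bulk samples fewer cells of a type and less RNA per cell cannot be told apart.

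In control ESCs the order of the levels was led by DNMT3B, at 418 ± 123 TPM (SD, n = 4), followed by UHRF1 at 164 ± 15.0 and DNMT3A at 103 ± 5.72 TPM. DNMT1 (41.7 ± 5.23), TDG (41.4 ± 2.19) and TET1 (39.6 ± 11.4 TPM) came next and did not differ from each other beyond their spread. TET3 (9.50 ± 2.02) and DNMT3L (8.51 ± 6.38) also overlapped, and TET2 was lowest at 2.66 ± 0.685 TPM. In control EBs the mean was highest for DNMT3L, at 62.4 ± 38.7 TPM (SD, n = 3), which led in #17 and #37 but not in #13 and overlapped DNMT3B. DNMT3B (40.6 ± 10.6), DNMT1 (29.9 ± 2.95), UHRF1 (26.6 ± 9.09), TDG (26.0 ± 2.78) and DNMT3A (20.8 ± 8.95 TPM) then lay close together. TET1 (12.6 ± 3.77) and TET2 (12.2 ± 3.50 TPM) could not be told apart in EBs, and TET3 was at 8.58 ± 1.91 TPM. The plot of the levels by library shows that the largest separations between stages were those of DNMT3A, DNMT3B, UHRF1, TET1 and TET2, and that ntEB GFP #24 lay within the stem cell range for DNMT3A, DNMT3B and TET1.

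**Figure D1:**
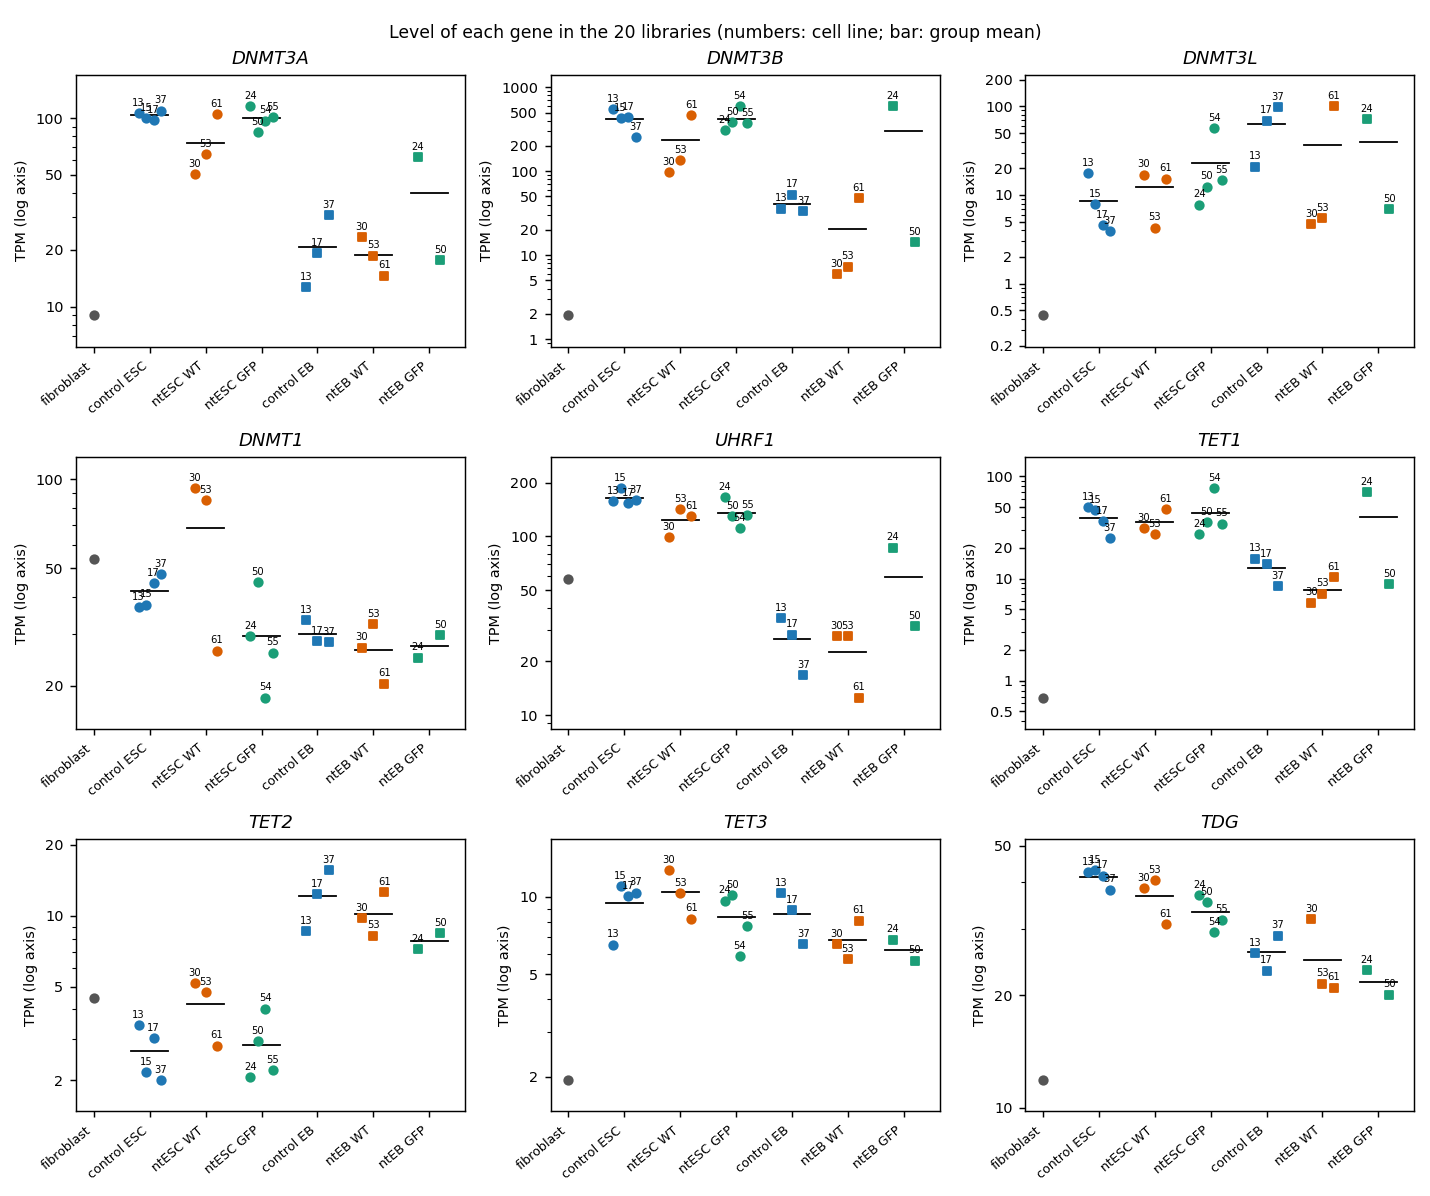
Level of each of the 9 genes in TPM (y axis, logarithmic) in the 7 groups (x axis). Each point is 1 library (circles, stem cell and fibroblast cultures, squares, EBs), the number is the line, and the bar is the arithmetic group mean. The DNMT3B points of the 4 control ESC lines lie between 253 and 549 TPM and those of the 3 control EBs between 33.3 and 52.7 TPM, while ntEB GFP #24 lies at 590 TPM.

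The first question was how the 9 genes change when fertilization-derived ESCs differentiate. Differences below are on the log2(TPM + 0.1) scale with their standard error (SE), tested with limma over all genes, and a call is an adjusted p under 0.05. In control EBs against control ESCs, 5 of the 9 fell (DNMT3A, DNMT3B, UHRF1, TET1 and TDG) and 2 rose (DNMT3L and TET2). Of all 16545 genes tested, 35.9% fell and 20.7% rose. The median difference of the 9 genes was -0.67, beside -0.28 over all genes tested.

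DNMT3A measured 107, 99.4, 97.4 and 109 TPM in control ESC #13, #15, #17 and #37, and 12.8, 19.2 and 30.4 TPM in control EB #13, #17 and #37. The stem cell lines were close to each other, the EBs differed from each other more, and the groups did not overlap. DNMT3A fell by 2.39 (SE 0.36, adjusted p = 5.49e-05, limma). DNMT3B measured 549, 432, 440 and 253 TPM in control ESC #13, #15, #17 and #37, and 35.8, 52.7 and 33.3 TPM in control EB #13, #17 and #37. Every EB was far below the lowest stem cell line, #37. DNMT3B fell by 3.34 (SE 0.94, adjusted p = 0.00658, limma).

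DNMT3L, the cofactor without catalytic activity, went the other way. It measured 17.7, 7.82, 4.56 and 3.92 TPM in control ESC #13, #15, #17 and #37, and 20.9, 69.1 and 97.3 TPM in control EB #13, #17 and #37. The EBs were all higher, but EB #13 exceeded its own stem cell line by little, while #17 and #37 were far above theirs. DNMT3L rose by 2.86 (SE 1.06, 95% interval 0.62 to 5.10, adjusted p = 0.0301, limma). The call did not hold in the 16 libraries of the 8 lines read at both stages, either with the line as a block (2.91, adjusted p = 0.0578) or without it (2.91, adjusted p = 0.0544). It was also lost without ESC #17 (2.65, adjusted p = 0.0666), ESC #37 (2.58, 0.0701), EB #17 (2.66, 0.0858) or EB #37 (2.41, 0.114), within a range of adjusted p from 0.00828 to 0.114 over 25 alternatives. Markers of amnion and trophoblast (6 genes) summed to 797, 2012 and 5100 TPM in control EB #13, #17 and #37, in the same order as DNMT3L. Most of each sum was CGA, at 454, 1435 and 4578 TPM. TFAP2A had that order too, but GATA3 (281, 444 and 369 TPM) and VTCN1 were highest in #17. TFAP2B and ISL1 were below 1 TPM. The part of these markers in the DNMT3L result was not tested.

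Of the maintenance pair, UHRF1 changed with the stage and DNMT1 did not pass the test. UHRF1 measured 158, 186, 153 and 159 TPM in control ESC #13, #15, #17 and #37, and 34.8, 28.2 and 16.8 TPM in control EB #13, #17 and #37. All EBs were well below all stem cell lines, and #37 was the lowest. UHRF1 fell by 2.68 (SE 0.33, adjusted p = 1.27e-05, limma). DNMT1 measured 37.0, 37.7, 44.5 and 47.7 TPM in control ESC #13, #15, #17 and #37, and 33.3, 28.3 and 28.1 TPM in control EB #13, #17 and #37. These groups were adjacent without overlapping, and the difference of -0.47 (SE 0.36, 95% interval -1.23 to 0.28) had an adjusted p of 0.271 (limma), with the spread taken over all 6 groups of the fit. Within libraries UHRF1 was 3.33 to 4.94 times the level of DNMT1 in control ESCs and 0.597 to 1.04 times in control EBs.

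The 3 TET genes each behaved differently. TET1 measured 50.1, 46.9, 36.7 and 24.8 TPM in control ESC #13, #15, #17 and #37, and 15.7, 13.7 and 8.40 TPM in control EB #13, #17 and #37. Line #37 was the lowest at both stages, and the groups did not overlap. TET1 fell by 1.64 (SE 0.53, adjusted p = 0.0153, limma), a call that was lost without EB #37 (-1.38, adjusted p = 0.073, within 0.00109 to 0.073 over 25 alternatives). TET2 measured 3.44, 2.16, 3.03 and 2.01 TPM in control ESC #13, #15, #17 and #37, and 8.60, 12.4 and 15.6 TPM in control EB #13, #17 and #37. The EB of #37 was the highest although its stem cell line was the lowest. TET2 rose by 2.15 (SE 0.31, adjusted p = 3.9e-05, limma). TET3 lay between 6.54 and 10.3 TPM in control EBs, inside the range of the control ESCs, whose lowest line was at 6.53 TPM, with a difference of -0.14 (SE 0.25, 95% interval -0.68 to 0.40, adjusted p = 0.655, limma).

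TDG, the glycosylase that acts after the TET enzymes, lay between 38.2 and 43.0 TPM in control ESCs and between 23.2 and 28.8 TPM in control EBs. The decrease was small and uniform. TDG fell by 0.67 (SE 0.16, adjusted p = 0.00205, limma). In another marmoset assembly (calJac240_pri) TDG overlaps GLT8D2, which measured 0.134 to 1.85 TPM in the stem cell lines and 0.863 to 11.2 TPM in EBs. The strand setting of the counting is not given in the sources used here, so reads of the overlap may be shared, which leaves both values uncertain.

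The same stage comparison in ntESC WT lines gave 6 genes that fell and 1 that rose, where 32.1% of the 16545 genes tested fell and 14.3% rose, and the median of the 9 was -1.18 beside -0.33 over all genes. DNMT3A measured 50.6, 64.7 and 105 TPM in ntESC WT #30, #53 and #61, and 23.4, 18.6 and 14.6 TPM in their EBs. DNMT3B measured 97.1, 136 and 465 TPM in ntESC WT #30, #53 and #61, and 5.98, 7.29 and 47.7 TPM in their EBs. For both genes line #61 started far above #30 and #53, and for DNMT3B it also ended above them. DNMT3A fell by 1.91 (SE 0.38, adjusted p = 0.00089) and DNMT3B fell by 3.83 (SE 1.00, adjusted p = 0.00569, limma).

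UHRF1 measured 99.1, 141 and 130 TPM in ntESC WT #30, #53 and #61, and 27.6, 27.7 and 12.6 TPM in their EBs. UHRF1 fell by 2.52 (SE 0.35, adjusted p = 7.05e-05, limma). TET1 measured 31.0, 27.5 and 48.3 TPM in ntESC WT #30, #53 and #61, and 5.83, 7.11 and 10.2 TPM in their EBs. TET1 fell by 2.18 (SE 0.57, adjusted p = 0.00545, limma). For UHRF1 and for TET1 the stages were separated in every WT line. TET2 measured 5.17, 4.73 and 2.81 TPM in ntESC WT #30, #53 and #61, and 9.75, 8.24 and 12.6 TPM in their EBs, and rose by 1.27 (SE 0.33, adjusted p = 0.00514, limma).

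DNMT1 measured 93.2, 84.8 and 26.3 TPM in ntESC WT #30, #53 and #61, and 26.9, 32.3 and 20.4 TPM in their EBs. Lines #30 and #53 dropped to the level of the other EBs, and #61 had little to lose. DNMT1 fell by 1.18 (SE 0.38, adjusted p = 0.0189, limma), but the call was lost under quantile normalization (-0.87, adjusted p = 0.08) and without ntESC WT #30 (-0.86, 0.095), ntESC WT #53 (-0.92, 0.0873) or ntEB WT #61 (-1.01, 0.0613), within 0.000414 to 0.541 over 26 alternatives. TDG fell by 0.58 (SE 0.17, adjusted p = 0.0108, limma), and under quantile normalization its difference was -0.26 (adjusted p = 0.237). TET3 lay between 8.23 and 12.7 TPM in ntESC WT and between 5.72 and 8.09 TPM in ntEB WT, with a difference of -0.60 (SE 0.27, adjusted p = 0.0802, limma). DNMT3L measured 17.0, 4.29 and 15.3 TPM in ntESC WT #30, #53 and #61, and 4.74, 5.43 and 101 TPM in their EBs. It was high in the EB of #61 and low in the others, and the difference of 0.41 (SE 1.13, 95% interval -1.99 to 2.81) had an adjusted p of 0.79 (limma). Without lines #30 and #53 at both stages, which leaves #61 alone, 3 of the 9 were called, DNMT3A (-2.83, adjusted p = 0.00798), UHRF1 (-3.37, adjusted p = 0.00163) and TET2 (2.13, adjusted p = 0.0123), where 21.5% of all genes fell and 13.2% rose. DNMT3B (-3.28, adjusted p = 0.132), TET1 (-2.22, 0.124), TDG (-0.56, 0.0759) and DNMT1 (-0.37, 0.541) were then not called.

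In the GFP lines 3 genes fell (DNMT3A, UHRF1 and TDG) and 1 rose (TET2), where 16.2% of genes tested fell and 13.6% rose, and the median of the 9 was -0.62 beside -0.12 over all genes. ntEB GFP #24 and #50 differed widely. DNMT3B measured 308 TPM in ntESC GFP #24 and 590 TPM in its EB, and 386 TPM in ntESC GFP #50 and 14.2 TPM in its EB. TET1 measured 27.2 TPM in ntESC GFP #24 and 70.7 TPM in its EB, and 35.7 TPM in ntESC GFP #50 and 8.79 TPM in its EB. The EB of #24 thus had more of both transcripts than its own stem cell line, and the EB of #50 had far less. UHRF1 measured 166 and 130 TPM in ntESC GFP #24 and #50, and 86.6 and 31.6 TPM in their EBs. DNMT3A measured 116 and 84.3 TPM in ntESC GFP #24 and #50, and 62.1 and 17.7 TPM in their EBs. Both genes were lower in the EB of each line, and the EB of #24 remained above every other EB. TET2 measured 2.07 and 2.94 TPM in ntESC GFP #24 and #50, and 7.24 and 8.45 TPM in their EBs, so that it was higher in the EB of #24 as well.

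The limma differences in the GFP lines were -1.57 for DNMT3A (SE 0.41, adjusted p = 0.01), -1.35 for UHRF1 (SE 0.38, adjusted p = 0.0154), 1.49 for TET2 (SE 0.35, adjusted p = 0.00599) and -0.62 for TDG (SE 0.18, adjusted p = 0.0191). With the line as a block none of these 4 was called (adjusted p = 0.0619, 0.0515, 0.06 and 0.0669), in the same 16 libraries without it only TET2 was, and none was called without ntEB GFP #50, which leaves #24 as the only EB (0.381, 0.435, 0.107 and 0.238). Without ntEB GFP #24, DNMT3B (-4.82, adjusted p = 0.000788) and TET1 (-2.18, adjusted p = 0.00412) were called as well, within 0.000788 to 0.793 and 0.00412 to 0.796 over 25 alternatives, in a fit where 28.6% of all genes fell. With both EBs their differences were -2.13 (SE 1.06, adjusted p = 0.14) and -0.68 (SE 0.60, adjusted p = 0.416). DNMT3L, DNMT1 and TET3 differed by 0.41 (SE 1.20), -0.05 (SE 0.41) and -0.39 (SE 0.29), with adjusted p of 0.826, 0.943 and 0.327. POU5F1 and NANOG measured 1247 and 831 TPM in ntEB GFP #24 and 25.8 and 15.0 TPM in ntEB GFP #50. The S phase and proliferation genes (14) summed to 2288 TPM in ntEB GFP #24 and to between 618 and 1347 TPM in the other 7 EBs, and the part of either in the results of #24 was not tested.

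**Figure D2:**
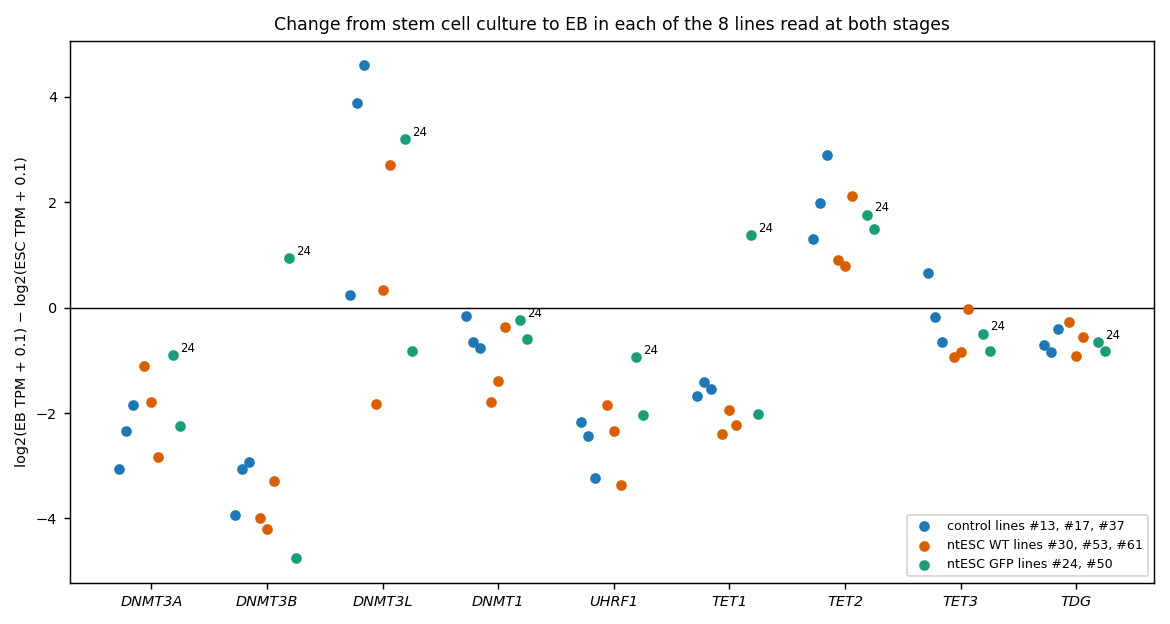
Change of each gene from stem cell culture to EB in the 8 lines read at both stages, as the difference of log2(TPM + 0.1) (y axis), with 1 point per line and colours for the origin of the line. UHRF1 and DNMT3A lie below 0 in 8 of 8 lines and TET2 above 0 in 8 of 8, while DNMT3B and TET1 lie below 0 in 7 lines and above 0 in line #24. The matching shares of all genes were not computed.

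Line by line, UHRF1 changed by between -3.37 and -0.94 and DNMT3A by between -3.05 and -0.90. TDG changed by between -0.92 and -0.27 and DNMT1 by between -1.79 and -0.15. These 4 genes were lower in the EB of all 8 lines. TET2 was higher in the EB of all 8 lines, by between 0.79 and 2.89. The share of all genes that kept 1 direction in all 8 lines was not computed, so these counts have no background. In the group comparisons, 41.2% (control), 38.4% (WT) and 44.9% (GFP) of all genes tested had a stage difference above 0. DNMT3B changed by between -4.75 and -2.92 in 7 lines and by 0.94 in #24, and TET1 by between -2.39 and -1.41 in 7 lines and by 1.37 in #24. The plot of the changes by line shows DNMT3L as the most scattered gene, with 6 lines up and #30 (-1.82) and #50 (-0.83) down. TET3 changed by between -0.94 and 0.65.

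Across all lines, the 11 stem cell libraries and the 8 EB libraries did not overlap for UHRF1 (lower in EBs, as for 9.79% of all genes) and for TET2 (higher in EBs, as for 6.23%), although the TET2 stages overlapped under quantile normalization. Without ntEB GFP #24, DNMT3A, DNMT3B, UHRF1 and TET1 were separated downward (4 of 9, where 23.7% of all genes were) and TET2 upward (1 of 9, where 8.81% were).

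The composition of each enzyme family moved with these changes. DNMT3B made up 69.8% to 83.7% of the summed DNMT3A and DNMT3B TPM in control ESCs and 52.2% to 73.7% in control EBs. Its share was 20.4% and 28.1% in ntEB WT #30 and #53, 76.5% in ntEB WT #61, 44.6% in ntEB GFP #50 and 90.5% in ntEB GFP #24. DNMT3A was therefore the more abundant de novo enzyme transcript in 3 of 8 EBs and in no stem cell line. TET1 made up 66.7% to 83.4% of the summed TET TPM in control ESCs and 27.5% to 45.3% in control EBs, while the share of TET2 was 3.60% to 6.10% and 24.9% to 51.1%. In ntEB WT, TET1 made up 26.3% to 33.7% and TET2 39.1% to 44.0%. The TET1 share was 69.9% in ntESC GFP #24 and 83.4% in its EB, beside 38.4% in ntEB GFP #50. The bars of family composition show the EB of #24 within the stem cell range for TET1 and above it for DNMT3B.

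**Figure D3:**
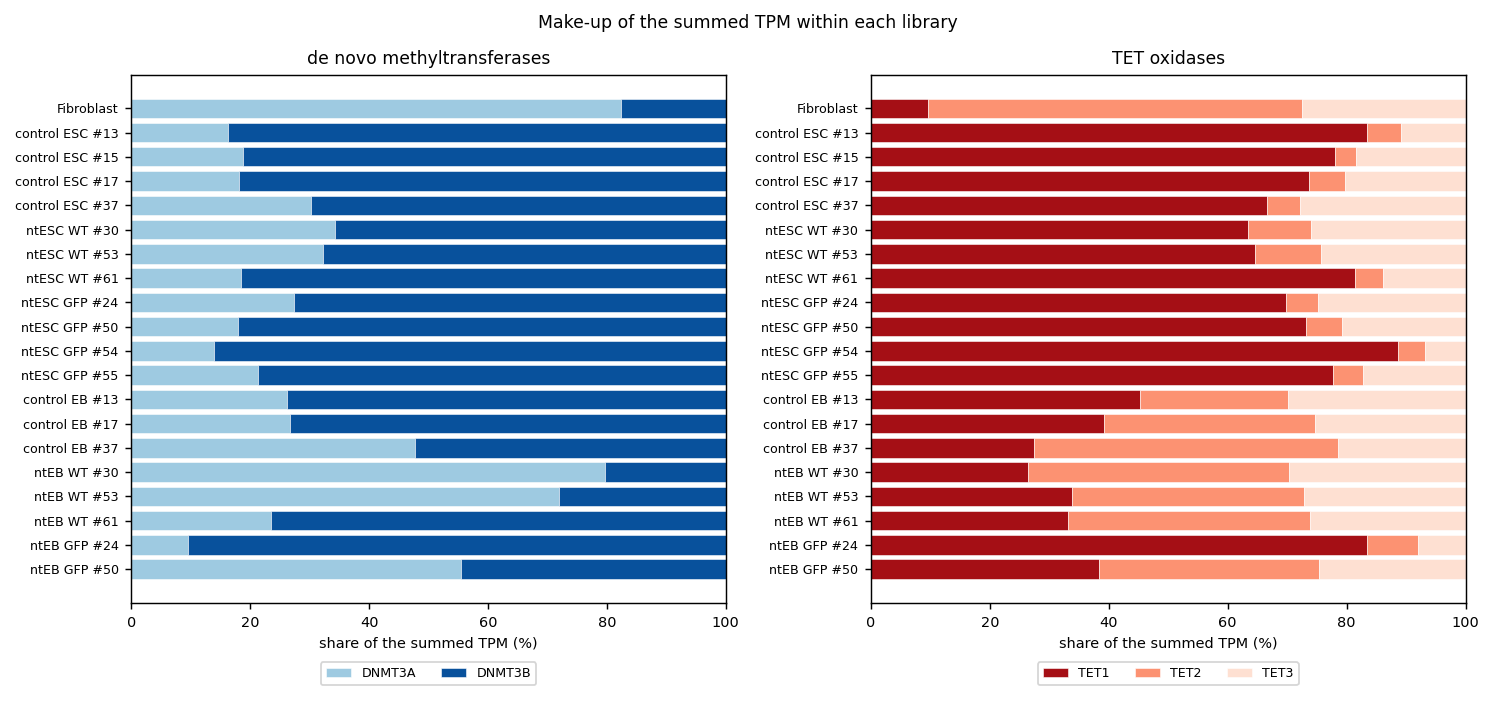
Share of each gene in the summed TPM of its family (x axis, percent) in the 20 libraries (y axis), for the de novo methyltransferases (left) and the TET oxidases (right), with 1 bar per library. DNMT3B fills 65.7% to 86.1% of the left bars of the 11 stem cell lines and 17.6% in fibroblasts, and TET1 fills 63.5% to 88.6% of the right bars of the stem cell lines and 9.62% in fibroblasts.

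The second question was whether ntESC lines differ from control ESCs. Both ntESC groups were compared with the same 4 control lines, so these comparisons are not independent. None of the 9 genes was called in ntESC WT (limma), where 0.0931% of 16118 genes were called in either direction. At an unadjusted p under 0.05 there were 3 of 9 (DNMT3A, DNMT3B and UHRF1), beside 19.3% of all genes. The lines of this group were unlike each other. DNMT3A and DNMT3B in #30 and #53 lay below all 4 control lines (the highest of them, 64.7 and 136 TPM in #53, against control minima of 97.4 and 253 TPM), while #61 lay within the control range for both. DNMT1 was above the control range of 37.0 to 47.7 TPM in #30 and #53, at 93.2 and 84.8 TPM, and below it in #61, at 26.3 TPM.

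Over the 3 WT lines the differences from control ESCs were -0.56 for DNMT3A (SE 0.20, adjusted p = 0.2), -1.14 for DNMT3B (SE 0.47, adjusted p = 0.233) and 0.51 for DNMT1 (SE 0.41, adjusted p = 0.479, limma). Without #61, DNMT3A (-0.85, adjusted p = 0.00617), DNMT3B (-1.81, adjusted p = 0.00758) and DNMT1 (1.10, adjusted p = 0.0258) were called, in a fit that called 2900 genes in all. Without #30 and #53, which leaves #61 alone, the differences of DNMT3A, DNMT3B and DNMT1 were 0.02, 0.21 and -0.65, and the range of adjusted p over 17 alternatives was 0.00617 to 0.984, 0.00758 to 0.932 and 0.0258 to 0.848. The summed fibroblast markers were high in #30 and #53, with DCN at 808 and 454 TPM. DCN was at 3.22 TPM in #61 and at 6.72 to 93.8 TPM in controls. Of the same list COL1A1 (79.6 and 129 TPM, controls 203 to 312 TPM), PDGFRB and THY1 were below all controls in #30 and #53. Endoderm marker sums were also high there, at 92.7 and 74.1 TPM beside 15.1 to 35.3 TPM in controls. Amnion and trophoblast sums were 338 and 97.8 TPM beside 25.5 to 63.2 TPM in controls. DNMT1 was at 53.7 TPM in the single fibroblast library, below its levels in #30 and #53. The part of any of these markers in the levels of #30 and #53 was not tested. UHRF1 was 1.06 and 1.67 times DNMT1 in #30 and #53 and 4.95 times in #61, within or next to the control values of 3.33 to 4.94.

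UHRF1, at 99.1, 141 and 130 TPM, lay below the lowest control line (153 TPM) in all 3 WT lines. It differed by -0.42 (SE 0.15, 95% interval -0.75 to -0.08, adjusted p = 0.199) and TET2 by 0.64 (SE 0.32, 95% interval -0.06 to 1.34, adjusted p = 0.292, limma). DNMT3L (0.55, 95% interval -1.06 to 2.16), TET1 (-0.15, -0.93 to 0.64), TET3 (0.14, -0.41 to 0.69) and TDG (-0.18, -0.45 to 0.09) had adjusted p from 0.408 to 0.832. The intervals of DNMT3L, TET1, TET3 and TDG leave room for changes in either direction, and that of DNMT3L was the widest.

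**Figure D4:**
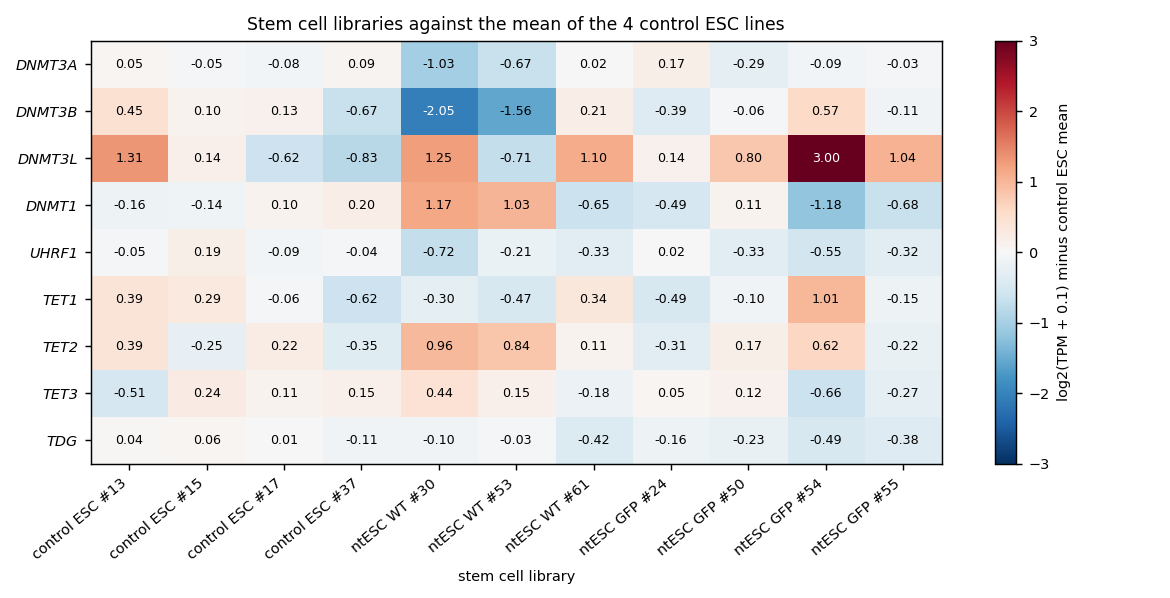
Difference of each of the 11 stem cell libraries (columns) from the mean of the 4 control ESC lines, as log2(TPM + 0.1), for the 9 genes (rows), with blue for lower, red for higher and the value in each cell. ntESC WT #30 and #53 are at -2.05 and -1.56 for DNMT3B and at 1.17 and 1.03 for DNMT1, and ntESC GFP #54 is at 3.00 for DNMT3L and -1.18 for DNMT1.

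In ntESC GFP none of the 9 genes was called either (limma), where 0.441% of genes were called. At an unadjusted p under 0.05 there was 1 of 9 (TDG), beside 13.8% of all genes. DNMT3B averaged 416 ± 127 TPM (SD, n = 4) against 418 ± 123 TPM in control ESCs, and the 95% interval of its difference ran from -0.95 to 0.95. DNMT3L measured 7.78, 12.4, 57.4 and 14.7 TPM in ntESC GFP #24, #50, #54 and #55, and DNMT1 measured 29.5, 44.8, 18.3 and 25.9 TPM in the same lines. Line #54 was the highest of the 11 stem cell libraries for DNMT3L, DNMT3B (599 TPM) and TET1 (76.9 TPM) and the lowest for DNMT1, as the map of deviations by line shows. The difference of DNMT3L was 1.25 (SE 0.68, 95% interval -0.24 to 2.74, adjusted p = 0.447), that of DNMT1 -0.56 (SE 0.38, adjusted p = 0.545) and that of TDG -0.31 (SE 0.11, adjusted p = 0.251, limma). DNMT3A (-0.06), UHRF1 (-0.30), TET1 (0.07), TET2 (0.06) and TET3 (-0.19) had adjusted p from 0.387 to 0.944.

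Among EBs, the ntEB groups were likewise compared with the same 3 control EBs. None of the 9 genes was called in ntEB WT (0 of 9 also at an unadjusted p under 0.05, 0.00602% of 16621 genes called) or in ntEB GFP (0 of 9, 0.012% called, limma). DNMT3L differed among the EBs of each ntEB group. It was low in ntEB WT #30 (4.74), ntEB WT #53 (5.43) and ntEB GFP #50 (6.94 TPM), below the lowest control EB at 20.9 TPM, and high in ntEB WT #61 (101) and ntEB GFP #24 (72.1 TPM). Its differences from control EBs were -1.90 in ntEB WT (SE 1.34, 95% interval -5.01 to 1.20, adjusted p = 0.984) and -1.21 in ntEB GFP (SE 1.50, -4.68 to 2.26, adjusted p = 0.737). The amnion and trophoblast markers summed to 232, 171 and 437 TPM in the 3 EBs with low DNMT3L and to 1897 TPM in ntEB WT #61, but to 84.7 TPM in ntEB GFP #24, where DNMT3L was high. DNMT3B showed the same kind of split, with 5.98, 7.29 and 14.2 TPM in ntEB WT #30, ntEB WT #53 and ntEB GFP #50 against 33.3 to 52.7 TPM in control EBs. The fibroblast markers summed to 46922 and 23395 TPM in ntEB WT #30 and #53 and to 2231 TPM in #61, against 6915 to 12251 TPM in control EBs. They summed to 16691 TPM in ntEB GFP #50 and to 14677 TPM in ntEB GFP #24, where DNMT3B was at 590 TPM. The part of the fibroblast markers in these values was not tested.

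The differences of the remaining genes between ntEB WT and control EBs lay between -0.69 (TET1) and -0.08 (DNMT3A), apart from DNMT3B at -1.63 (95% interval -4.69 to 1.43). In ntEB GFP, DNMT3A (0.76), DNMT3B (1.21), UHRF1 (1.04) and TET1 (1.03) were above the control EBs and the others below, with adjusted p from 0.555 to 0.831 over the 9 genes. The mean of each of the first 4 joins the high level of #24 with a lower one of #50.

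Whether the response to differentiation itself differed was tested as the difference between 2 stage differences. None of the 9 genes was called for ntESC WT against control lines (0 of 9 also at an unadjusted p under 0.05, 0% of 16545 genes called and 1123 of them at an unadjusted p under 0.05, limma). The estimates ran from -2.45 for DNMT3L (95% interval -5.73 to 0.83) to 0.48 for DNMT3A (-0.63 to 1.59). For ntESC GFP against control lines 0 of 9 were called (limma, 0.0181% of genes called), and 1 of 9 (UHRF1) was at an unadjusted p under 0.05, beside 14.5% of all genes. The response difference of UHRF1 was 1.33 (SE 0.50, 95% interval 0.27 to 2.40, adjusted p = 0.267). Without ntEB GFP #50, which leaves #24, the response differences were 1.72 for DNMT3A (adjusted p = 0.0243), 3.89 for DNMT3B (0.0265), 2.06 for UHRF1 (0.0114) and 2.46 for TET1 (0.0172), in a fit that called 13.9% of all genes higher, and over 25 alternatives the highest adjusted p of these were 0.968, 0.827, 0.776 and 0.828. Without #24, which leaves #50, the response difference of DNMT3B was -1.48 and that of TET1 was -0.54, the lowest values over the left-out libraries.

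The wild-type donor fibroblasts give a level before reprogramming, in 1 library with no test. No library of CAG-EGFP donor cells was read, so for the GFP lines it is not their own donor. Here 7 of the 9 genes were at least 2-fold lower than the control ESC mean, as were 32.3% of 16160 genes, and none was at least 2-fold higher. DNMT3B was at 1.92 TPM (log2 difference -7.64), TET1 at 0.683 TPM (-5.61), DNMT3L at 0.438 TPM (-3.74) and DNMT3A at 8.99 TPM (-3.50). TET3 (1.95 TPM, -2.20), TDG (11.9 TPM, -1.79) and UHRF1 (57.8 TPM, -1.50) were lower as well. DNMT1 at 53.7 TPM (0.37) and TET2 at 4.47 TPM (0.76) were above the control ESC mean by less than 2-fold. All 7 ntESC lines had DNMT3A, DNMT3B, DNMT3L, TET1, TET3, TDG and UHRF1 above the fibroblast level.

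The genes that work with these 9 were described from lists written from textbook knowledge. Among the maintenance partners, 6 of 9 fell and 1 rose in control EBs, with a median of -1.13 beside -0.28 over all genes. HELLS, a chromatin remodeller needed for methylation of repeats, measured 327 to 453 TPM in control ESCs and 14.4 to 21.7 TPM in control EBs and fell by 4.47 (SE 0.58, adjusted p = 1.73e-05, limma). CDCA7L, a relative of the HELLS activator CDCA7, fell by 3.25 (SE 0.84, adjusted p = 0.00381), and PCLAF, a factor bound to the replication clamp, rose by 2.18 (SE 0.62, adjusted p = 0.007). Of the proteins that read the mark, 4 of 8 listed were measured, of which MBD2 (1.89, SE 0.21, adjusted p = 5.84e-06), ZBTB38 (1.82, SE 0.30, adjusted p = 0.000115) and ZBTB4 (1.21, SE 0.29, adjusted p = 0.00232) rose, and MBD1 was at -0.09 (adjusted p = 0.578). The median of the 4 was 1.52.

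The base excision repair list, which completes demethylation after TDG, had 8 of 11 genes lower and 1 higher, with a median of -1.29. PARP1, a sensor of strand breaks, fell by 2.51 (adjusted p = 0.000628) and APEX1, the endonuclease that acts after a glycosylase, by 2.19 (adjusted p = 6.79e-06), whereas SMUG1, a uracil glycosylase, rose by 0.56 (adjusted p = 0.0226, limma). Of the methyl donor cycle, which supplies S-adenosylmethionine, 8 of 10 fell and none rose (median -0.77), among them MTHFD1 (-2.06, adjusted p = 5.97e-05) and SHMT1 (-1.45, adjusted p = 0.00186, limma) of the folate cycle. Among methylation modulators 6 of 11 fell and none rose (median -0.72). DPPA3, which in mouse binds UHRF1 and lowers maintenance methylation, measured 116 to 321 TPM in control ESCs and 0.190 to 0.366 TPM in control EBs and fell by 8.90 (SE 1.08, adjusted p = 1.06e-05). QSER1, known from human ESCs to protect promoters from methylation, fell by 2.50 (SE 0.36, adjusted p = 4.28e-05, limma).

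The S phase and proliferation list moved in the same comparison. Of its 14 genes 13 fell and none rose (median -1.60), led by the replicative helicase subunits MCM4 (-2.84, adjusted p = 2.33e-05) and MCM5 (-2.44, adjusted p = 0.000165), and TYMS was at -0.08 (adjusted p = 0.763, limma). The cell cycle marker MKI67 changed by -1.31 to -2.66 in 7 lines and by -0.74 in #24. UHRF1 and DNMT1 are replication-coupled, and the part of proliferation in their levels was not tested. Pluripotency genes fell in 9 of 9 (median -10.42). Of fibroblast markers 6 of 10 rose and 2 fell, of surface ectoderm markers 4 of 5 rose, and of amnion and trophoblast markers 4 of 5 rose.

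**Figure D5:**
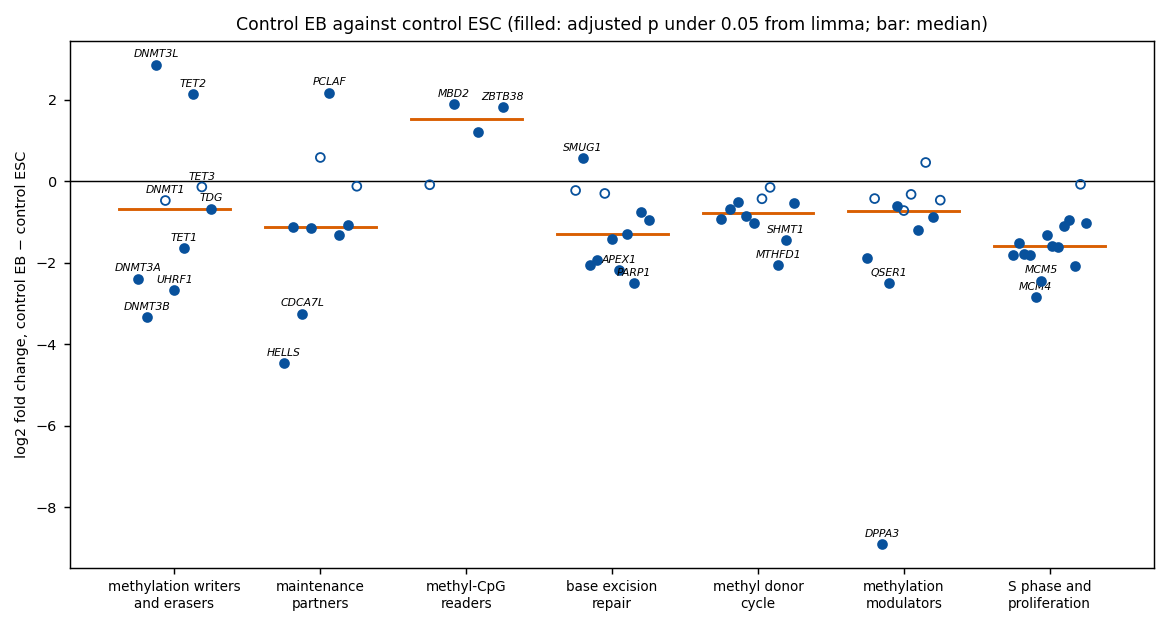
log2 fold change of control EBs against control ESCs (y axis) for the 9 genes and 6 lists of genes that work with them or mark replication (x axis), with 1 point per gene, filled where the adjusted p from limma is under 0.05, and a bar at the median. The medians lie between -1.60 (S phase and proliferation) and -0.67 (the 9 genes), except the readers at 1.52, and labels mark the 9 genes and the leading called genes of each list.

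In ntEB WT against ntESC WT these lists gave 0 higher and 6 lower of 9 maintenance partners, 2 higher of 4 readers (MBD2 and ZBTB38), 1 higher and 6 lower of 11 base excision repair genes, 7 lower of 10 in the methyl donor cycle, 8 lower of 11 modulators and 14 lower of 14 S phase genes. Without lines #30 and #53 the counts were 1 higher and 4 lower of 9 partners, 2 higher of 4 readers, 3 lower of 11 repair genes, 6 lower of 10 in the methyl donor cycle, 5 lower of 11 modulators and 12 lower of 14 S phase genes. In ntEB GFP against ntESC GFP they gave 3 lower of 9 maintenance partners (HELLS -2.74, USP7 -1.07 and PCNA -0.92), 3 higher of 4 readers (MBD2 1.37, ZBTB38 1.42 and ZBTB4 1.09), 3 lower of 11 in base excision repair (PARP1 -1.59, APEX1 -1.29 and UNG -1.06), 4 lower of 10 in the methyl donor cycle (MTHFD1 -1.84, SHMT1 -1.45, MAT2A -0.88 and AHCY -0.83), 2 lower of 11 modulators (TRIM28 -1.18 and NSD1 -0.77) and 12 lower of 14 S phase genes. Without ntEB GFP #24 they were 5 lower of 9 partners, 3 higher of 4 readers, 5 lower of 11 repair genes, 5 lower of 10 in the methyl donor cycle, 6 lower of 11 modulators and 13 lower of 14 S phase genes. HELLS measured 274 TPM in ntEB GFP #24 against 14.1 to 21.7 TPM in the other 7 EBs, and DPPA3 measured 399 TPM there against at most 6.34 TPM in the others. Both thus separated this EB in the way DNMT3B and TET1 did. Between ntESC and control ESC lines the only called gene of these 6 lists was APEX1, lower in ntESC GFP (-0.42, SE 0.07, adjusted p = 0.0407, limma), and between EB groups none was called.

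The genes whose profile over the 20 libraries was most like that of 4 of the 9 were found by the mean absolute difference between centred log2(TPM + 0.1) profiles, over 16615 genes. For DNMT3B they were LOC118154049 (0.30) and the pluripotency-associated gene DPPA2 (0.36), where the median over all genes was 2.04. DPPA2 measured 40.8 to 72.1 TPM in control ESCs, 15.4 and 18.4 TPM in ntESC WT #30 and #53, 2.73 to 4.04 TPM in control EBs and 41.9 TPM in ntEB GFP #24. DPPA2 was picked for its likeness over these same libraries. Its low values in #30 and #53 and its high value in the EB of #24 therefore follow from that choice. For UHRF1 they were CBL (0.19) and QTRT2 (0.22), with a median of 1.10, and for TET1 LOC103789862 (0.25) and LOC100409954 (0.32), with a median of 1.17. DNMT3L had no neighbour as close, with FGD3 at 0.63 and HPDL at 0.65 beside a median of 1.56. FGD3 measured 4.15 to 16.9 TPM in control EBs and 0.758 to 1.64 TPM in ntEB WT #30, ntEB WT #53 and ntEB GFP #50, the 3 EBs with low DNMT3L. FGD3 was picked for likeness over these same libraries too, so its low values in these 3 EBs follow from that choice. It was also below the control EBs in ntEB WT #61 (2.74 TPM) and ntEB GFP #24 (3.93 TPM), where DNMT3L was high.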

How the data were processed

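TPM values of 20 libraries were taken from the 2 tables that the authors deposited, 1 of stem cell and fibroblast cultures (22330 genes, 12 libraries) and 1 of EBs (22803 genes, 8 libraries). To make the TPM, the authors prepared stranded poly(A) libraries, trimmed reads with fastp, mapped them to the calJac4 marmoset genome with STAR, keeping unique hits, counted them per gene with featureCounts and left out sex chromosomes. The sources used here give neither the annotation and strand setting nor the sequencer of each library. All libraries add up to 1000000 TPM. TPM keeps no depth, so the reads behind a value are unknown and no counting interval was computed. Another 3 genes of each table were dropped because the calJac240_pri annotation, used only for names, chromosomes and overlaps (19366 and 19656 genes matched), places them on a sex chromosome. No libraries were duplicates (highest correlation 0.9796 and 0.9703).

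Genes whose mean reached 0.5 TPM were kept, and limma 3.58.1 (R 4.3.3) was fitted to log2(TPM + 0.1) with a trended empirical Bayes step, Benjamini-Hochberg adjustment and a threshold of 0.05. Stages and responses were fitted over 19 libraries in 6 groups (16545 genes), stem cell groups over 11 libraries (16118) and EB groups over 8 (16621), so that all groups of a fit share the spread of a gene. IVF and NAT lines formed 1 control group. A pseudocount understates changes of low genes. Stages of a line are the same line by label: deviations of the 8 pairs from their group means correlated by 0.037 to 0.264, over 0.1 in 7. Among the 2 or 3 EBs of its group, each of the 8 lines correlated best with its own. With 2 GFP EBs, the match of 1 fixes that of the other. The line was a block in an alternative fit. Other alternatives were pseudocounts, no filter, quantile normalization, fits of only the compared groups and leaving out libraries. The scripts were tested on simulated data with 200 changed genes. Python 3.11.15, pandas 2.3.3, numpy 2.4.6 and matplotlib 3.10.9 were also used.

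The 9 genes, the companion lists and the marker lists were chosen with earlier results of these data known. A gene of the methyl donor list is not reported here and was left out of its counts. The text names all 9 genes, the marker genes POU5F1, NANOG, SOX2, MKI67, TOP2A and DCN where used, up to 2 risen and 2 fallen genes of each companion list with the largest change in control EBs against control ESCs, in other comparisons every called gene of a list if at most 4 were called, and the 2 genes most like DNMT3B, DNMT3L, UHRF1 and TET1. ZBTB4, MBD1, TYMS, GLT8D2 and levels of list genes in ntEB GFP #24 were named after their values were seen.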

Additional observations from a re-analysis of the deposited data

Results flagged for a closer look

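In 18 groups of 4 libraries (the 9 genes in control ESC and in ntESC GFP), the highest or lowest library was compared with the others by its gap over the range of the group. ntESC GFP #54 stood apart for DNMT3L, with a gap over range of 0.861 (57.4 TPM, the other lines 7.78 to 14.7 TPM), and for TET1, with 0.83 (76.9 TPM, the others 27.2 to 35.7 TPM), against a critical value of 0.829. On the log2 scale the ratios were 0.683 and 0.739, below that value. Chance flags about 1 in 20 such groups. The same line had the highest DNMT3B (599 TPM) and the lowest DNMT1 (18.3 TPM) of its group, with ratios of 0.731 and 0.289. No difference in stage response between origins was found, either by the test over 18 response differences or by opposite directions in all lines over 27 pairs.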

How the results depend on the processing

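Over all genes tested, 56.6% were called in control EBs against control ESCs, 46.4% in ntEB WT against ntESC WT and 29.8% in ntEB GFP against ntESC GFP. Of the 9 genes, 7 were called in control EBs against control ESCs, and 5 to 7 when any 1 library was left out. In ntEB WT against ntESC WT 7 were called, 6 to 7 then, and 5 under quantile normalization, where the calls over all genes split into 3120 higher and 3926 lower in place of 2372 and 5307. Without lines #30 and #53, 3 were called there. In ntEB GFP against ntESC GFP 4 were called, 0 with the replicate block (the line), 1 in the same 16 libraries without it, and 0 to 6 with 1 library left out. In ntESC WT against control ESC 0 were called and 0 to 3 then, and for the response of ntESC GFP 0 and 0 to 4. Left-out libraries changed no other count from 0. The blocked fit called the same genes in the other comparisons, apart from DNMT3L in control EBs.

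Counts over all genes moved more. ntEB GFP against ntESC GFP had 4929 calls, 2089 with the block, 1986 in the 16 libraries without it, and 563 to 7055 with 1 library left out. Fitting only the compared groups gave 6 calls in place of 15 in ntESC WT (9 to 2900 with 1 library left out) and 137 in place of 71 in ntESC GFP (19 to 118). ntEB WT against control EB had 1 call, 2 with a pseudocount of 0.01, 0 under quantile normalization, with only the compared groups or without #30 and #53, and 0 to 126 with 1 library left out. ntEB GFP against control EB had 2 calls, 1 with a pseudocount of 1, and 0 to 575. The response of ntESC WT had 0 calls, 4 without #30 and #53, and 0 to 847 with 1 library left out. The response of ntESC GFP had 3 calls, 5 and 15 with pseudocounts of 1 and 0.01, 1 under quantile normalization, 0 without a filter, with the block or in the 16 libraries without it, and 0 to 2684. Without ntEB GFP #24, 4 genes in place of 1 were separated downward between stages, and under quantile normalization 0 in place of 1 upward. The cause of these shifts was not tested.

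Differences that were not called changed sign in places. Without ntESC WT #30 and #53, a choice made after seeing the data, as were the 16 libraries without a block and the stages without #24, the differences from control ESCs were 0.023 for DNMT3A, 0.21 for DNMT3B, -0.65 for DNMT1, 0.34 for TET1 and -0.18 for TET3. Without the same lines ntEB WT differed from control EBs by 0.26 for DNMT3B, 0.96 for DNMT3L and 0.090 for TET2. Their absence also turned the WT response of DNMT3A (-0.44), DNMT3B (0.058), DNMT1 (0.10), UHRF1 (-0.69) and TET3 (0.12). Under quantile normalization ntESC GFP differed by -0.0011 for DNMT3B and -0.014 for TET2, and the TDG response by -0.17, or by -0.083 with the block and in the 16 libraries without it. With 1 library left out, the ranges that crossed 0 were as follows. For control EBs against control ESCs this was TET3 (-0.31 to 0.040), and for ntEB WT against ntESC WT it was DNMT3L (-1.02 to 1.17). For ntEB GFP against ntESC GFP they were DNMT3B (-4.82 to 0.55), DNMT3L (-1.27 to 2.08), DNMT1 (-0.25 to 0.18) and TET1 (-2.18 to 0.82). For ntESC WT they were TET1 (-0.39 to 0.018) and TET3 (-0.030 to 0.30), and for ntESC GFP DNMT3A (-0.14 to 0.016), DNMT3B (-0.22 to 0.15), TET1 (-0.24 to 0.25) and TET2 (-0.12 to 0.19). For ntEB WT against control EB they were DNMT3A (-0.38 to 0.24), UHRF1 (-0.56 to 0.12) and TDG (-0.29 to 0.015), and for ntEB GFP DNMT3A (-0.14 to 1.66), DNMT3B (-1.48 to 3.89), DNMT3L (-2.89 to 0.47) and TET1 (-0.47 to 2.53). For the response of ntESC WT they were DNMT3B (-1.43 to 0.18), UHRF1 (-0.14 to 0.54) and TDG (-0.11 to 0.20), and for that of ntESC GFP DNMT3A (-0.082 to 1.72), DNMT3B (-1.48 to 3.89), TET1 (-0.54 to 2.46) and TDG (-0.054 to 0.17).

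Quantile normalization shifted the median of all genes by 0.194 in control EBs, 0.251 in ntEB WT against ntESC WT, -0.193 in ntEB GFP against control EB and -0.223 in the response of ntESC GFP. The groups hold 2 to 4 lines, depth is unknown, and where a left-out library leaves 1 line in a group, its spread is assumed to be that of the other groups.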

Other observations

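Endoderm, germline and surface ectoderm markers were read beside the 9 genes. In control EBs against control ESCs, 1 of 4 endoderm genes fell and none rose, and of 5 germline genes 1 rose (PIWIL2, adjusted p = 3.08e-05) and 1 fell (MAEL, adjusted p = 0.00503, limma). The germline markers summed to 3.64 to 4.29 TPM in control EBs and to 29.5 TPM in ntEB GFP #24, the highest of the 20 libraries. Most of the sum in ntEB GFP #24 was SYCP3 (11.1), DDX4 (9.73) and MAEL (5.63 TPM). PIWIL2 (2.02 TPM) was within the control EB range there, TEX101 was at 0.642 TPM, and DAZL (0.410 TPM) was below the 1.30 to 1.34 TPM of control EBs. Endoderm markers summed to 176 and 255 TPM in ntEB GFP #24 and #50 and to 13.2 to 94.8 TPM in the other 6 EBs. APOA1 alone was at 167 and 249 TPM in #24 and #50, where SOX17, FOXA2 and HNF4A were at most 5.70 TPM. Surface ectoderm markers summed to 71.4, 100.5 and 102.5 TPM in control EB #13, #17 and #37 and to 110 TPM in ntEB WT #61. They summed to between 8.28 and 30.7 TPM in the other 4 EBs. Most of the sums in control EBs and ntEB WT #61 was KRT15 and DLX3, with KRT5 and KRT14 at most 1.33 TPM. GRHL2 was lower in control EBs (8.92 to 15.9 TPM) than in control ESCs (20.5 to 26.6 TPM).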
